A study of Mus musculus with 128 samples.

Results

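The 10 genes described here handle iron in the body and in the cell: Hamp, Hfe, Tfr2, Tfrc, Trf, Slc11a2, Slc40a1, Cp, Fth1 and Ftl1. They were taken by symbol from the expression tables of 8 mouse tissues, and all 10 of them were found among the 55285 genes of each table. The tissues were liver, kidney, lung, heart, aorta, brain, skin and gastrocnemius muscle, with 4 libraries each at 6, 15, 24 and 30 months of age. The study's design names male C57BL/6J mice. The sample records give a wild-type genotype and no treatment, and those of aorta give neither sex nor strain. Bulk poly(A) RNA of pulverised whole tissue was sequenced with a stranded kit, so a rise of a transcript may come from more of the cells that make it or from more RNA per cell, and these cannot be told apart. The records do not say that the libraries of a group came from separate animals, and p-values then measure only the spread between these libraries.

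Iron reaches cells bound to transferrin, encoded by Trf, and enters through transferrin receptor 1, encoded by Tfrc. The transporter encoded by Slc11a2 moves it out of endosomes, ferritin built from the Fth1 and Ftl1 chains stores it, and ferroportin, encoded by Slc40a1, is the exporter. Ceruloplasmin, encoded by Cp, is a copper protein that oxidises exported iron so that transferrin can bind it. The liver hormone hepcidin, encoded by Hamp, binds ferroportin and closes the exit. HFE and transferrin receptor 2, encoded by Hfe and Tfr2, take part in telling hepatocytes how much iron the blood carries. Several of these mRNAs carry iron-responsive elements, short hairpins bound by iron regulatory proteins when cell iron is low. Binding near the start of an mRNA blocks its translation, and binding in the 3′ UTR of Tfrc protects the mRNA, so the amount of ferritin mRNA does not give the amount of ferritin.

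The hairpins that couple these transcripts to iron are shown because they divide the members by the kind of control. GENCODE vM21 transcripts on GRCm38 were searched for a C, 5 bases, the loop CAGTGN and 5 bases able to pair with the first 5, with G-T pairs allowed. Of 21877 protein-coding genes, 0.142% held a match in a 5′ UTR and 0.59% in a 3′ UTR. Among the members, 3 matched in the 5′ UTR and 1, Tfrc, in the 3′ UTR, where 4 separate hairpins were found. The loop is in capitals.
Fth1, 5′ UTR, chr19:9982732-9982761, plus strand: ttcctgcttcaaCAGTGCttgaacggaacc
Ftl1, 5′ UTR, chr7:45459778-45459807, minus strand: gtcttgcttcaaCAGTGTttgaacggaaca
Slc40a1, 5′ UTR, chr1:45925464-45925493, minus strand: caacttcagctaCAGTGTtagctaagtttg
Tfrc, 3′ UTR, chr16:32631219-32631248, plus strand: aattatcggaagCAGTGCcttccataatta
Tfrc, 3′ UTR, chr16:32631598-32631627, plus strand: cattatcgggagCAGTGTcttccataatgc
Tfrc, 3′ UTR, chr16:32631663-32631692, plus strand: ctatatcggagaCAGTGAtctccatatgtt
Tfrc, 3′ UTR, chr16:32631710-32631739, plus strand: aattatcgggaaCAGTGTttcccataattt
The 5 bases on each side of the loop were identical in Fth1 and Ftl1 (ttcaa and ttgaa). No transcript of the other members matched these letters, which says nothing of other forms of the element.

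Depth lay between 7.65 and 82.8 M reads per library (M, 1000000 reads), with a median of 15.6 M. In all, 12 libraries correlated with the rest of their tissue far less well than was usual there: replicate 3 of aorta at 6 months, replicates 1 and 2 of skin at 24 months, replicate 4 of heart at 24 months, and 8 libraries of 30 months (replicate 3 of brain, 3 and 4 of kidney, 2 and 3 of liver, 4 of lung, 3 and 4 of muscle). Where a member gained or lost a call without these libraries, that value is given too. The summed defining genes of each tissue were at least 1.91 times as high in every library of that tissue as in any library of the others, the smallest margin being that of aorta. Aorta libraries also held 4919 to 7374 reads per M of 5 adipocyte markers at 30 months, against 4802 to 8415 reads per M at 6 months.

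Levels are given first as rpm, reads per 1000000 reads of the library, which describe the tissues without a test because each tissue table was normalised on its own. Liver stood highest without overlap for 5 members at 6 months: Trf, Cp, Slc40a1, Hamp and Tfr2. Trf reached 7072 ± 560.1 rpm there (SD, n = 4), against 347 ± 19.7 in lung, the next tissue. Lung, aorta and brain overlapped in Trf, followed by skin and muscle, and heart and kidney, at 22.7 ± 1.67 and 20.6 ± 4.36, overlapped at the low end. Cp had 897 ± 29.5 rpm in liver and 309.8 ± 13.7 in lung, and brain was lowest with 16.3 ± 0.689. Slc40a1 had 166 ± 16.8 in liver and 50.5 ± 7.99 in kidney, and heart, lung and brain overlapped at the bottom, between 8.82 and 15.2.

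Hamp and Tfr2 were close to liver-specific in level. Hamp had 447 ± 110.3 rpm in 6-month liver, and in the other 7 tissues the 6-month means lay between 0 in muscle and 2.13 ± 0.362 in lung. Muscle held no Hamp read in 14 of its 16 libraries. Tfr2 had 291 ± 8.74 in liver and 5.14 ± 0.295 in brain, and the values in lung, muscle and heart overlapped, at no more than 0.376. Hfe was broad: lung and liver overlapped at 46.4 ± 5.01 and 45.8 ± 2.58, and brain was lowest with 5.61 ± 0.392.

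The uptake genes had other leading tissues. Tfrc was highest in brain (121 ± 16.5 rpm), muscle (113 ± 13.6) and aorta (103 ± 70.7), which overlapped, and lowest in liver and heart, which also overlapped. Slc11a2 was highest in kidney, with 79 ± 14 rpm against 44.2 ± 5.76 in skin, and lowest in heart with 13.7 ± 0.536. Fth1 was highest in kidney (3862 ± 281) and Ftl1 in liver (2262 ± 184) and kidney (2150 ± 117), which overlapped.

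Read counts of different genes can be compared only per length of transcript. Per kb of merged exons, 6-month liver was led by Trf with 2573 rpm per kb, Ftl1 with 2337 and Hamp with 1091. Tfrc, with 6.63, and Slc11a2, with 4.43, stood last there. In brain and kidney the ferritin chains led, with 972 for Fth1 and 205 for Ftl1 in brain and 2479 for Fth1 and 2221 for Ftl1 in kidney.

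**Figure D1:**
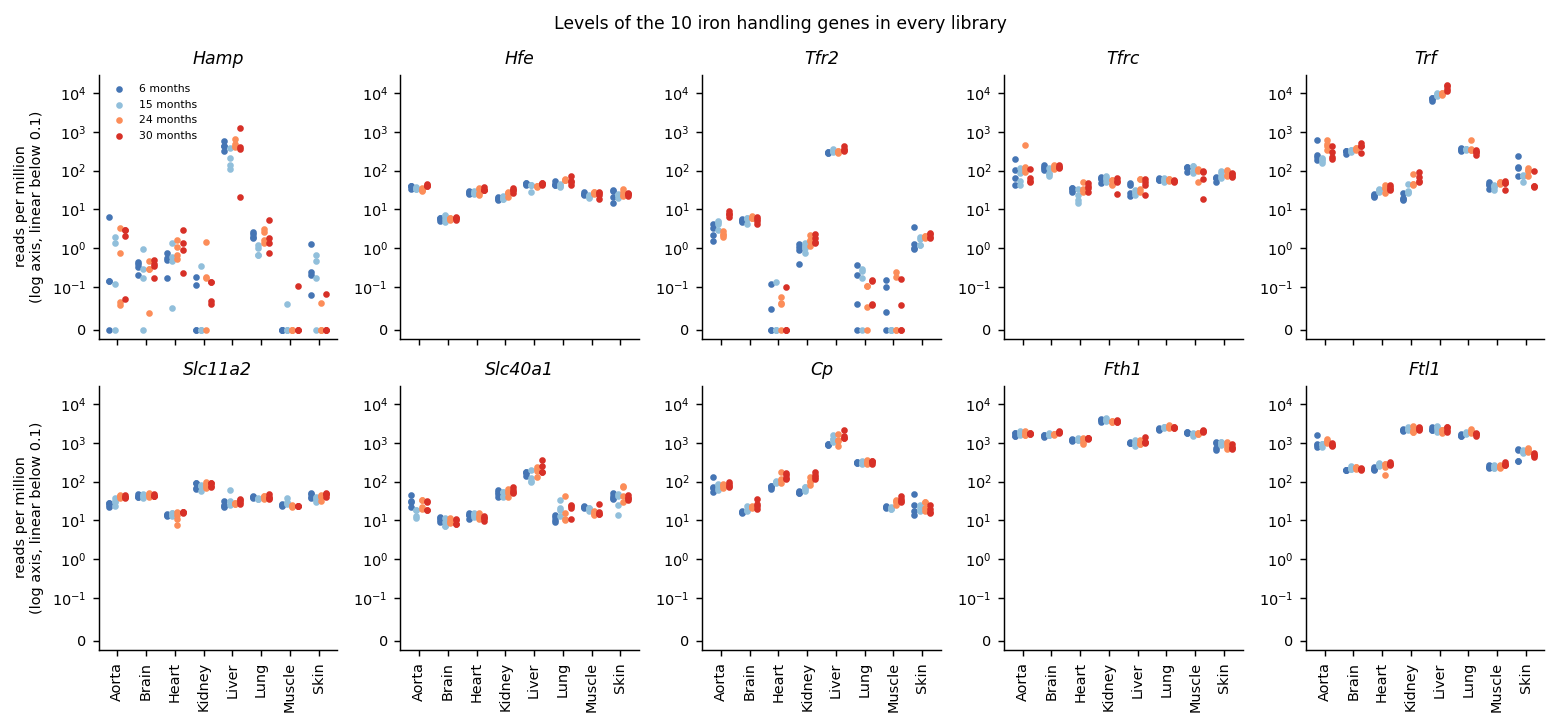
Rpm (log axis, linear below 0.1) of each member in every library, by tissue, coloured by age. Hamp and Tfr2 stand far above the other tissues in liver, where Hamp averaged 447 and Tfr2 291 rpm at 6 months.

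The balance of the ferritin chains ranged apart from every other tissue in liver and heart, while brain overlapped muscle, and aorta, kidney, lung and skin overlapped. The heavy chain gives ferritin its ferroxidase site and the light chain helps form the iron core. Per kb, Fth1 over Ftl1 ranged over 4.27 to 5.88 in the 16 brain libraries, 3.97 to 5.08 in muscle and 2.51 to 3.89 in heart. It ranged over 0.24 to 0.357 in liver. The other 4 tissues lay between 0.718 and 1.4. In brain the ratio was 5.39 to 5.88 at 30 months, against 4.39 to 5.08 at 6 months, and in heart 2.51 to 3.01 at 30 months against 3.02 to 3.88 at 6 months, without overlap. An exact two-sided permutation test, added after the ratios were seen, gave p = 0.0286 in each, the smallest that 4 against 4 libraries allow, and 0.114 after adjustment over the 8 tissues. Groups of 4 without overlap always give this p, so the test adds nothing to the ranges.

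**Figure D2:**
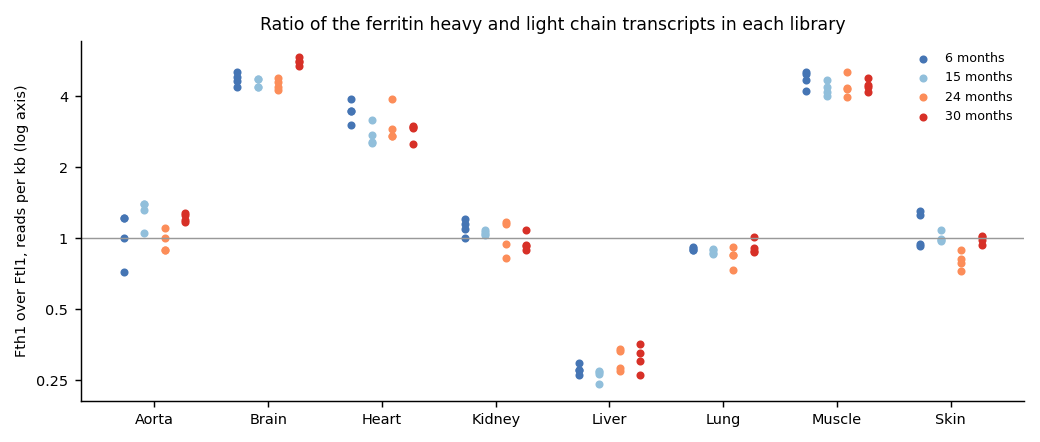
Ratio of Fth1 to Ftl1 reads per kb (log axis) in each library, by tissue and coloured by age, with a line at 1. All 16 liver libraries lie at or below 0.357 and all brain and muscle libraries at or above 3.97.

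Ageing was tested within each tissue on log2(value + 1) of the deposited normalised reads, with limma-trend over all genes that passed a filter on low counts and Benjamini-Hochberg adjustment over those genes. Of 80 member and tissue pairs, 73 passed the filter: Hamp was tested in aorta, heart, liver and lung, Tfr2 in aorta, brain, kidney, liver and skin, and the other 8 members in all 8 tissues. At 30 against 6 months 14 of the 73 pairs (19.2%) had an adjusted p under 0.05, against 12.9% of all gene and tissue pairs, and 13 of the 14 were higher at 30 months, against 6.84% of all pairs higher and 6.09% lower. At 24 against 6 months 9 of the 73 passed (12.3%, against 6.55% of all pairs), 8 of them higher, against 4.04% of all pairs higher. Without the libraries that stand apart, calls were gained at 24 months for Cp in brain (0.42, adjusted p = 0.0362) and muscle (0.44, 0.00717), Fth1 in kidney (-0.25, 0.0241), Ftl1 in heart (0.30, 0.00621), Hfe in lung (0.34, 0.0106), and Trf in aorta (1.05, 0.0151) and liver (0.38, 0.0373). At 15 against 6 months limma-trend called 0 of the 73, against 0.599% of all pairs, with 24 at an unadjusted p under 0.05. edgeR also called 0 at 15 months, DESeq2 called 4 and limma-voom with quality weights called 6. Without the heart library that stands apart, heart Cp (0.40, adjusted p = 0.00681), Ftl1 (0.37, 0.00159) and Trf (0.42, 0.016) passed at 15 months. Shares over all pairs are not given at the unadjusted threshold, for the alternatives, or without the libraries that stand apart. Counts without such a share do not show a change particular to the members. The 3 comparisons share their 6-month libraries. The median log2 change over the 73 pairs was 0.0796 at 30 months.

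**Figure D3:**
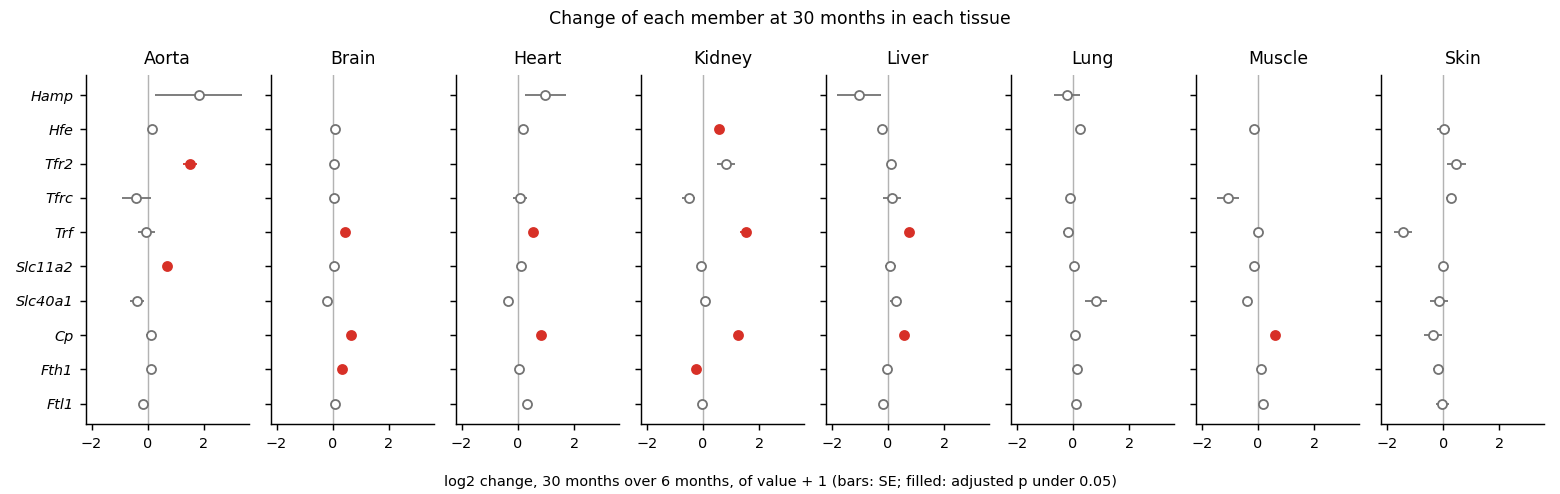
Log2 change of value + 1 at 30 over 6 months (x axis) with its SE for each member tested in each tissue. Filled points have an adjusted p under 0.05. Cp and Trf account for 9 of the 14.

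Cp had the most calls, in 5 of 8 tissues, and was higher at 30 months in each. In kidney, where 28.3% of all genes tested passed at 30 months, Cp had 2050.5, 1852, 2596 and 2269 normalised reads at 30 months, against 883, 904, 891 and 958 at 6 months. The groups stood well apart, with a log2 change of 1.26 ± 0.11 (SE) and an adjusted p of 2.32e-06. In heart (5.15% of all genes) it had 2514, 2008, 2415 and 1953 at 30 months, against 1119.5, 1269, 1338 and 1223 at 6 months, a log2 change of 0.84 ± 0.15 (adjusted p = 0.00427).

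In brain, where 7.5% of genes tested passed, Cp had 350.3, 457, 598 and 413 at 30 months, against 295, 277, 271 and 293 at 6 months (log2 change 0.65 ± 0.12, adjusted p = 0.00229). In muscle (13.1% of genes) it had 543, 500.0, 615 and 758 at 30 months, against 414, 406, 374 and 385 at 6 months (0.59 ± 0.11, adjusted p = 0.00362). All 30-month libraries of both tissues lay above all 6-month libraries. In liver (24.9% of genes) Cp had 25730.0, 28079, 34630.1 and 27052 at 30 months, against 19736, 19033, 18608 and 19412 at 6 months. This change, 0.58 ± 0.17 (adjusted p = 0.0196), was 0.49 to 0.63 with 1 library left out and lost its call without replicate 3 of 30 months (adjusted p = 0.0501) and without both liver libraries that stand apart (0.46, adjusted p = 0.16).

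Cp was not called in lung, the second highest tissue, with 5565, 5693, 5486 and 4745 at 30 months against 5140.4, 5278, 5058 and 4929.7 at 6 months, nor in aorta or skin. At 24 months it was higher in heart (0.75 ± 0.15, adjusted p = 0.011, against 4.92% of genes, and 0.119 with the 2 ages compared alone) and kidney (0.81 ± 0.11, adjusted p = 0.000361, against 10.6%). In kidney the means over the 4 ages were 909, 1126.2, 1606 and 2192 normalised reads, low to high in age.

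Trf was higher at 30 months in 4 tissues. Kidney, the tissue with the least Trf at 6 months, had 803, 821, 1336 and 1093 normalised reads at 30 months, against 332, 312, 306 and 453 at 6 months. The log2 change of 1.51 ± 0.21 (adjusted p = 0.000108) was the largest of the 14, and it was 1.23 (adjusted p = 0.00167) without replicates 3 and 4 of 30 months, which are the highest and the second highest of that group. At 24 months it was 1.20 ± 0.21 (adjusted p = 0.00182).

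Liver, the source of plasma transferrin, had 242819, 212934, 257265 and 319917 reads of Trf at 30 months, against 133106, 148797, 155651 and 168670.0 at 6 months (0.76 ± 0.17, adjusted p = 0.00434), without overlap. Heart had 619, 539, 623 and 531 at 30 months, against 434, 396, 379.7 and 363 at 6 months (0.55 ± 0.11, adjusted p = 0.0059), and the change was 0.60 ± 0.11 at 24 months (adjusted p = 0.00512, and 0.0741 with the 2 ages compared alone). In brain, where oligodendrocytes and choroid plexus are known sources, Trf had 7540.1, 8947, 4844 and 7579.7 at 30 months, against 5676, 5451, 5428 and 4612 at 6 months. The third 30-month library, one that stands apart, lay inside the 6-month range. The log2 change was 0.42 ± 0.12 (adjusted p = 0.036) with it and 0.60 (adjusted p = 6.93e-05) without it, and the call was lost without any 1 of 6 other brain libraries (highest adjusted p = 0.12), with no filter and with the 2 ages compared alone.

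Skin went the other way without passing the test. Trf had 1247, 563, 523 and 536 at 30 months, against 1017, 1629.7, 3453 and 1787 at 6 months (-1.42 ± 0.32, adjusted p = 0.0544). DESeq2 and limma-voom with quality weights called it. The first 30-month library lay inside the 6-month range. Summed adipocyte markers of skin ranged over 238.5 to 719.1 rpm at 30 months and 274.2 to 1131 at 6 months. The 6 hepatocyte markers summed to 4.31 to 13.7 in 30-month skin and 16.2 to 974.4 in 6-month skin. Their part in the result was not tested. Trf was not called in aorta, lung or muscle.

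**Figure D4:**
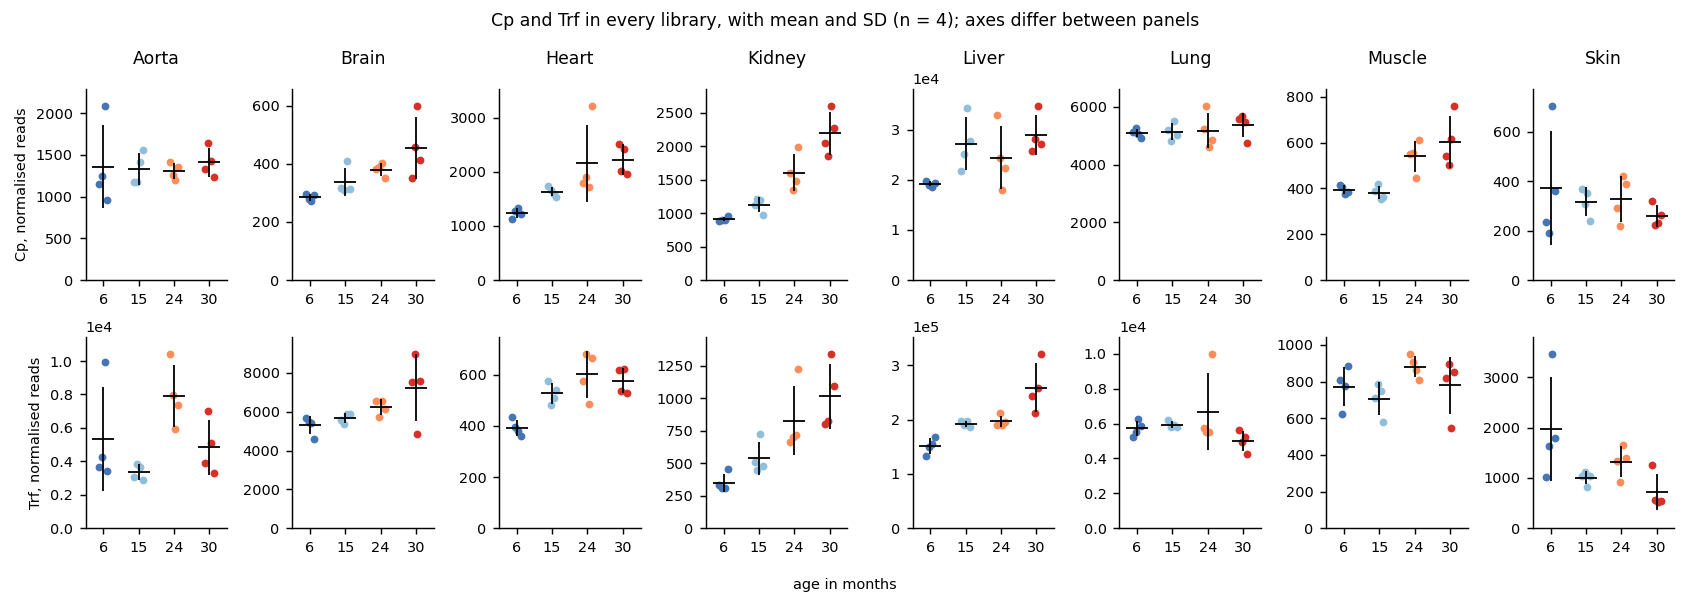
Normalised reads of Cp (top) and Trf (bottom) in every library against age in months, by tissue, with mean and SD (n = 4). Axes start at 0 and differ between panels. Kidney Cp averaged 909 reads at 6 months and 2192 at 30 months.

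Markers of macrophages, cells that recycle iron and express several of these genes, moved with age in the same tissues. At 30 months all 8 markers were called higher (limma-trend, adjusted p under 0.05) in heart and liver, and 7 of 8 in brain, kidney and muscle. In lung 6 of 8 were called, and in aorta and skin 0 of 8. Of all genes, 5.15% were called in heart, 24.9% in liver, 7.5% in brain, 28.3% in kidney, 13.1% in muscle and 5.67% in aorta. In aorta all 8 log2 changes were positive without a call, from 0.21 (Cd68) to 0.53 (C1qa). Their summed level in kidney was 317.4 to 768.6 rpm at 30 months, against 118 to 140.3 at 6 months. In heart it was 391 to 753.7 at 30 months and 239.8 to 250.7 at 6 months, and in liver 542.8 to 2102 and 231.4 to 323.9. In brain it was 314.7 to 389.6 at 30 months and 241.5 to 248.8 at 6 months, and in muscle 277.3 to 407.4 and 155.8 to 208.4. No macrophage marker was at 0 in any group. In lung the macrophage sum was 5968 to 7411 at 30 months and 5344 to 6086 at 6 months, while none of 9 members passed the test there (limma-trend, against 19.4% of genes, with 1 at an unadjusted p under 0.05, 0 by edgeR and 1 by DESeq2). Skin likewise had 0 of 9 (limma-trend, against 0.72% of genes, with 1 at an unadjusted p under 0.05, 0 by edgeR and 1 by DESeq2). Hepatocyte markers in kidney summed to 156.7 to 321.5 rpm at 30 months and 116.3 to 167 at 6 months, but went different ways. By limma-trend Ttr fell (-1.77, adjusted p = 8.77e-05), Serpina1a (1.30, 0.000365) and Fgb (1.30, 0.04) rose, and Alb and Apoa1 were not called. Adipocyte markers in kidney summed to 30.1 to 70.6 at 30 months and 10.2 to 20.3 at 6 months. In brain the oligodendrocyte markers summed to 6262 to 7575 at 30 months and 5855 to 6730 at 6 months, and the choroid plexus markers to 40.1 to 74.5 at 30 months and 41.8 to 60.6 at 6 months. Of the astrocyte markers in brain, limma-trend called Gfap higher (1.315, adjusted p = 1.06e-10) and did not call Aldh1l1, Aqp4, Gja1 or Slc1a2. Of the hepatocyte markers in brain it called Apoa1 higher (1.29, adjusted p = 0.0126) and did not call Alb (1.18, 0.0989), Fgb, Serpina1a or Ttr. The part of these cells in the Cp and Trf results was not tested.

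Hamp was called by limma-trend at no age in the 4 tissues tested. Liver Hamp had 7598, 6687, 20209.5 and 424 normalised reads at 30 months, against 12590.5, 8911, 9411 and 7269 at 6 months. The 30-month libraries spanned the whole 6-month range and beyond at both ends, and the log2 change was -1.03 ± 0.79 (adjusted p = 0.372). Without replicate 4 of 30 months, the library of 424 reads, it was 0.11. At 15 months liver Hamp was 2820.0, 4384, 8193 and 2469. In aorta a single 6-month library, the one that stands apart, had 104 normalised reads where the other three had at most 2.57.

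Mice carry a neighbouring copy of the gene, Hamp2, which is not one of the members but shares most of its sequence, so reads of the pair can be misassigned. Liver Hamp2 had 75, 27.9, 50.4 and 96.2 normalised reads at 30 months, against 216, 142, 201 and 223 at 6 months, with no overlap. It fell by 1.75 ± 0.36 on the log2 scale (adjusted p = 0.00288). Without both liver libraries that stand apart, which hold the lowest values of the group, the change was -1.17 ± 0.36 and not called (adjusted p = 0.0556). At 15 months it fell by 2.09 ± 0.36 (adjusted p = 0.0105). At 6 months Hamp2 had 9.09 ± 1.56 rpm in liver, against 447 for Hamp.

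The 250 bases before the start of each gene, from RefSeq on GRCm38.p6, are shown because the copies differ in level in liver. Capitals mark GGCGCC, the core of the element through which bone morphogenetic protein signals act on hepcidin, and GGCACC, on either strand.
Hamp, chr7:30944030-30944279, minus strand: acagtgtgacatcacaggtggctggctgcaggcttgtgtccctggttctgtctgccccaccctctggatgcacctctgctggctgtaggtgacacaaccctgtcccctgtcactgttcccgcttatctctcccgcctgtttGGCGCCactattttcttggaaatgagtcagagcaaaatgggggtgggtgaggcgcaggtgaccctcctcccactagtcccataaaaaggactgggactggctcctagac
Hamp2, chr7:30924182-30924431, minus strand: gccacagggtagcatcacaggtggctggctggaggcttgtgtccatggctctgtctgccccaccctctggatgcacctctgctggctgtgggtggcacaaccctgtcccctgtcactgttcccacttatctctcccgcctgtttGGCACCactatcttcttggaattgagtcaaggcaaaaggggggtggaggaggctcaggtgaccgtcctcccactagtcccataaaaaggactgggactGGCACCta
The windows aligned over 247 bases, of which 227 (91.9%) were identical. Hamp held GGCGCC once, at -109 from its start, and Hamp2 did not, while Hamp2 held GGCACC at 2 places and Hamp did not. Of 32851 promoter windows of this length, 9.59% held GGCGCC and 12.9% held GGCACC or its reverse complement. A match is a description of the letters and no evidence of binding.

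**Figure D5:**
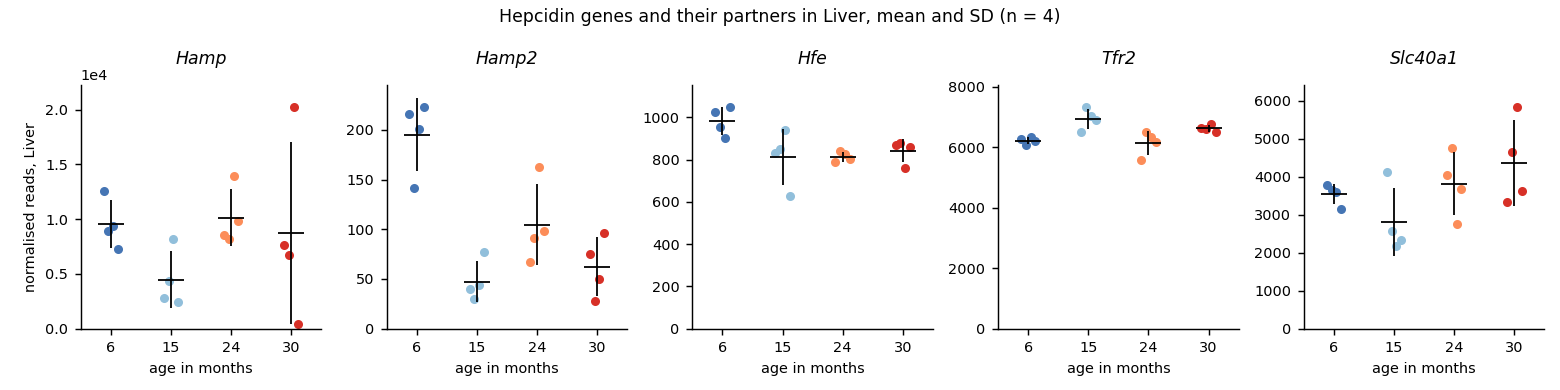
Normalised reads in liver against age in months for Hamp, its copy Hamp2, Hfe, Tfr2 and Slc40a1, each library as a point with mean and SD (n = 4). Hamp spans 424 to 20209.5 reads at 30 months, and Hamp2 averages 62.4 at 30 months and 195 at 6 months.

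The partners of hepcidin sensing changed outside the liver. Tfr2 in aorta had 160.4, 122, 108 and 126 normalised reads at 30 months, against 54.4, 38.2, 25.4 and 74.5 at 6 months, a log2 change of 1.497 ± 0.262 (adjusted p = 0.0054, against 5.67% of genes). Without the 6-month library that stands apart it was 1.23 (adjusted p = 0.0109). At 24 months aortic Tfr2 was 37.9, 45.6, 33.2 and 36, inside the 6-month range. Liver Tfr2 had 6624, 6595, 6780.2 and 6508 at 30 months against 6292, 6074, 6332 and 6200.3 at 6 months, a narrow step of 0.09 ± 0.07 without overlap that was not called (adjusted p = 0.364).

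Hfe in kidney had 497, 406, 514 and 504 normalised reads at 30 months, against 343, 314, 308 and 322 at 6 months, without overlap (0.57 ± 0.09, adjusted p = 0.000281). At 24 months its change was 0.29 ± 0.09 (adjusted p = 0.0432), a call that 8 of the 16 kidney libraries could each remove by being left out. Hfe in liver had 868, 880.4, 761 and 862 at 30 months, against 1025, 952, 902 and 1047 at 6 months, which did not overlap, and was not called (-0.22 ± 0.10, adjusted p = 0.141).

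Among the uptake genes, Slc11a2 rose in aorta. It had 715, 633, 755 and 691 normalised reads at 30 months, against 466, 423, 353 and 509 at 6 months (0.68 ± 0.13, adjusted p = 0.00852), and 762, 637, 733 and 709 at 24 months (0.71 ± 0.13, adjusted p = 0.00689, against 5.81% of genes). No 24- or 30-month library overlapped the 6-month group. Tfrc was called in none of the 8 tissues. In muscle it had 1641, 1536, 312 and 1059 at 30 months, against 2227, 2201, 2084 and 1644 at 6 months, without overlap (-1.08 ± 0.39, adjusted p = 0.075). Without both muscle libraries that stand apart, replicates 3 and 4, the change was -0.35 (adjusted p = 0.474).

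Ferritin heavy chain changed in opposite directions in brain and kidney. In brain Fth1 had 35558, 33957, 32710.3 and 30994 normalised reads at 30 months, against 27667, 25495, 27734 and 24614 at 6 months, without overlap (0.34 ± 0.05, adjusted p = 0.000492). In kidney it had 58570.4, 53749, 54929 and 55047 at 30 months, against 69506, 67734, 68354 and 57899.5 at 6 months. It fell by 0.24 ± 0.08 on the log2 scale (adjusted p = 0.035). The highest 30-month library lay above the lowest 6-month library. The call was lost in 5 of 12 other settings, among them without replicates 3 and 4 of 30 months (-0.23, adjusted p = 0.0811), and without any 1 of 5 kidney libraries (highest adjusted p = 0.0948).

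Ftl1 was called by limma-trend in 0 of 8 tissues at 30 months. In heart it had 4836, 4579, 4626 and 4564 normalised reads at 30 months, against 3450.5, 3460, 3770.5 and 4146 at 6 months, without overlap (0.33 ± 0.13, adjusted p = 0.192). Heart Ftl1 was called by limma-voom with quality weights, with the 2 ages compared alone, and without replicate 4 of 24 months (adjusted p = 0.000743), a library of 2730 reads. At 24 months both chains were higher in lung, where 15.1% of genes passed: Ftl1 had 32517, 31878, 29724 and 36578 normalised reads at 24 months, against 26829, 24584, 26420.2 and 25226 at 6 months (0.34 ± 0.08, adjusted p = 0.00931). Fth1 changed there by 0.23 ± 0.07 (adjusted p = 0.0326), a call lost without any 1 of 6 lung libraries. The processed copy of Ftl1, Ftl1-ps1, had 92.6 rpm in kidney at 30 months and 85.0 at 6 months, and reads of the gene and its copies can be split between them.

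The exporter Slc40a1 was called by limma-trend in 0 of 8 tissues at 30 months. In heart it had 166, 199.7, 156 and 203 normalised reads at 30 months, against 246, 256, 197 and 231 at 6 months, with overlap (-0.36 ± 0.12, adjusted p = 0.0956). Heart Slc40a1 was called by DESeq2, by limma-voom with quality weights, with the 2 ages compared alone, and without replicate 4 of 24 months (adjusted p = 0.0267). In muscle it had 265, 236, 307 and 268 normalised reads at 24 months, against 395, 433, 412 and 373 at 6 months, without overlap. It fell by 0.58 ± 0.14 on the log2 scale (adjusted p = 0.0445, against 1.77% of genes). The call was lost without any 1 of 10 muscle libraries. At 30 months muscle Slc40a1 had 287, 254, 446 and 262, of which the third, a library that stands apart, lay above all 6-month values. The change was -0.40 ± 0.14 with both muscle libraries that stand apart (adjusted p = 0.0702) and -0.57 without them (adjusted p = 0.00515), and limma-voom with quality weights called it too.

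Whether tissues differed in their change at 30 against 6 months was tested by an F test of the tissue by age interaction in limma-trend, over 21469 genes, of which 32.2% passed. Of the members 6 of 10 passed: Trf (adjusted p = 3.32e-11), Cp (6.68e-06), Hfe (0.00661), Slc11a2 (0.00822), Fth1 (0.0222) and Slc40a1 (0.0408). This test assumes 1 spread for all tissues and made more false calls on simulated data than its threshold allows. A test that keeps each tissue's own spread, added after the values of the first were known, could be run on the 8 members tested in every tissue and passed 50.3% of 11444 genes. It gave adjusted p-values of 1.12e-07 for Trf, 8.68e-08 for Cp, 0.000261 for Hfe, 0.00372 for Slc11a2, 0.000432 for Fth1 and 0.036 for Slc40a1. Tfrc (0.16 in the F test, 0.0669 in the second test) and Ftl1 (0.248 and 0.177) passed neither. Tfr2 and Hamp, in the F test alone, had 0.0991 and 0.214. For Tfr2 the F test gave 0.751 on log2(value + 0.1) and 9.66e-05 on log2(value + 5), and edgeR gave 0.00036. Without the 12 libraries that stand apart, 3 members passed the F test: Trf (1.26e-10), Cp (7.48e-05) and Hamp (0.0168). The test of Hamp takes in brain, kidney, muscle and skin, where Hamp failed the count filter. The libraries left out include the 6-month aorta library of 104 Hamp reads and both 30-month liver libraries that stand apart, so its pass rests on few libraries. Fth1 (0.0502), Slc11a2 (0.0753), Slc40a1 (0.126) and Hfe (0.216) then did not. Against shares of this size among all genes, the calls are not particular to the members.

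The genes most like each member over the 32 means of tissue and age were found by Pearson's r of log2(rpm + 1), as a description. They share libraries, depth and tissue with the member. For Hamp these were Fetub, Uox and Nr5a2 (r = 0.97 to 0.98), for Trf Gstm6, Rbp4 and Gbp11 (r = 0.92 to 0.95), for Cp Rtp3 and Ceacam1 (r = 0.93 to 0.95), and for Tfr2 Slc6a12, Mup3 and Pemt (r = 0.96). For Tfrc, Rtn4, Sec61a2 and Cntfr reached only 0.85 to 0.87. For Slc11a2 they were Dpp7, Tm2d2 and Ciao1 (r = 0.93 to 0.97), for Slc40a1 Adh5, Shmt1 and Slco2b1 (r = 0.92 to 0.94), for Hfe Serping1, Prxl2c and Gstm2 (r = 0.93 to 0.95), for Fth1 Tpcn1, Gkap1 and Tmed4 (r = 0.94), and for Ftl1 Gstt1, Tmem220 and Rbm47 (r = 0.95 to 0.97).

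Of the wider pathway, 29 genes for mitochondrial iron use, haem synthesis and iron-sulphur cluster assembly were followed. In liver 14 of 29 fell and 0 rose at 30 months, against 11% of all genes lower, with a median log2 change of -0.40 over the list and -0.02 over all genes tested. Nfs1, the cysteine desulphurase of cluster assembly, averaged 907 ± 113.7 normalised reads at 30 months and 1307 ± 41.4 at 6 months (-0.54 ± 0.09, adjusted p = 0.000805). The scaffold gene Iscu fell by 0.49 ± 0.09 (adjusted p = 0.00146). In kidney 11 of 29 fell and 0 rose, against 14.2% of all genes lower, with a median of -0.15. Nfs1 fell by 0.38 ± 0.05 (adjusted p = 5.41e-05) and Cpox, an enzyme of haem synthesis, by 0.63 ± 0.08 (adjusted p = 0.000104). Without the libraries that stand apart 6 of 29 fell in liver (3.85% of all genes lower) and 5 of 29 in kidney (7.92%). In the other 6 tissues 0 to 2 of the 29 rose and 0 or 1 fell, and in heart 8 fell without replicate 4 of 24 months (7.02% of all genes lower).

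Of 8 genes for the iron regulatory proteins and ferritin turnover, 7 were tested in each tissue. Kidney had 3 lower (14.2% of all genes) and liver 2 lower (11%) at 30 months, and without the libraries that stand apart 2 (7.92%) and 1 (3.85%). Aco1 and Ireb2, which encode the iron regulatory proteins, were both among them: liver Aco1 averaged 3233 ± 690.1 normalised reads at 30 months and 4881 ± 101.5 at 6 months (-0.62 ± 0.13, adjusted p = 0.00251), and kidney Ireb2 fell by 0.42 ± 0.07 (adjusted p = 0.000759). Kidney Aco1 (-0.17, adjusted p = 0.0358) and liver Ireb2 (-0.40, adjusted p = 0.0352) lost their calls without the libraries that stand apart (adjusted p = 0.332 and 0.17). In lung Ncoa4, the receptor that brings ferritin to lysosomes, rose by 0.24 ± 0.08 (adjusted p = 0.0408, and 0.114 without the library that stands apart).

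Of 21 genes for uptake and export of iron, haem and siderophores, 19 were tested in kidney, with 6 higher and 5 lower at 30 months. Of 17 tested in liver 5 were higher and 2 lower, and of 20 in lung 4 were higher and 5 lower, where 28.3%, 24.9% and 19.4% of all genes were called. Without the libraries that stand apart these counts were 4 and 1 in kidney (17.2% of all genes), 2 and 1 in liver (9.16%), and 2 and 3 in lung (12.4%). Lcn2, a siderophore-binding protein, averaged 352 ± 43.2 normalised reads in 30-month kidney and 38.8 ± 11.2 in 6-month kidney (3.18 ± 0.20, adjusted p = 1.82e-07). It also rose in lung (0.997 ± 0.254, adjusted p = 0.0125), heart (1.29 ± 0.23, adjusted p = 0.00416), liver (4.75 ± 1.17, adjusted p = 0.00781, and 0.122 without both libraries that stand apart) and brain (3.67 ± 0.88, adjusted p = 0.0147), where the call was lost without the brain library that stands apart (2.87, adjusted p = 0.0595). In liver Abcg2, a transporter that carries porphyrins out of cells, fell by 1.11 ± 0.12 (adjusted p = 0.000121). Hpx, the haem carrier of plasma, rose by 1.21 ± 0.24 (adjusted p = 0.0025) and Hmox1, which breaks haem down, by 1.77 ± 0.42 (adjusted p = 0.00603), which without both liver libraries that stand apart was 1.19 and not called (adjusted p = 0.122).

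Of 23 genes that control hepcidin, 4 were higher and 1 lower of 19 tested in 30-month kidney, and 2 were higher and 1 lower of 21 tested in liver, where 28.3% and 24.9% of all genes were called, so neither count exceeded the share over all genes. Without the libraries that stand apart, 4 were higher and 1 lower in kidney (17.2% of all genes), and 1 was higher and 0 lower in liver (9.16%). In liver Tmprss6, a protease that holds hepcidin down, fell by 0.34 ± 0.10 (adjusted p = 0.0211), a call lost without the libraries that stand apart (-0.20, adjusted p = 0.199). Fgl1 averaged 10019 ± 2172 normalised reads at 30 months against 1686 ± 166.1 at 6 months (2.55 ± 0.39, adjusted p = 0.000556). Stat3, through which interleukin-6 acts on hepcidin, rose in liver (0.67 ± 0.18, adjusted p = 0.0134, and 0.118 without the libraries that stand apart), kidney (0.59 ± 0.08, adjusted p = 0.000133) and brain (0.33 ± 0.07, adjusted p = 0.00824). Bmp6, the ligand that couples liver iron to hepcidin, rose in kidney (0.52 ± 0.08, adjusted p = 0.000301) and brain (0.42 ± 0.11, adjusted p = 0.0212). It was not called in liver (-0.12 ± 0.19, adjusted p = 0.693).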

How the data were processed

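Per the labels, RNA was isolated from frozen pulverised tissue and sequenced with a stranded mRNA kit. The submitters' processing notes name FastQC, STAR, RSEM, DESeq2 and GRCm39 without versions. The authors deposited 1 table per tissue whose unit is a signal, reads divided by 1 size factor per library. Whole reads were recovered from the deposited values in every library (100% within 0.01 reads). No column was left unused (0). Values were analysed as log2(value + 1) with limma 3.58.1 (limma-trend, 1 mean per age, 16 libraries per tissue) after edgeR 4.0.16 filterByExpr with a minimum count of 10. Alternatives used edgeR, DESeq2 1.42.0 and voom. Levels are recovered reads scaled to the library total (rpm).

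Members and lists were chosen with earlier results of these data known. Leaving the libraries that stand apart (more than 5 median absolute deviations below the tissue's median correlation) out of the other iron lists and Hamp2 was added after the data were seen. Named were all members, up to 3 genes per other list and tissue with the smallest adjusted p under 0.05 at 30 months, of which examples are given, and the 3 genes most like each member, of which 1 is not reported here.

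The test planned for a difference between tissues was the F test with 1 spread. Its values for the members were seen before simulated data showed too many false calls. In all, 4 versions were then compared on simulated data by their share of false calls: that test on all genes, on genes tested in all 8 tissues, with weights by tissue, and a test with a spread of its own for each tissue. On the 11444 genes tested in all 8 tissues, 29.9% of the calls of the F test were false. For the last test the share was 6.45%, still somewhat above its threshold, and shares of the other versions are not given. In these simulated data only a small part of the genes changed, and only in 30-month liver. A far larger share of genes passed in the real data, so these shares of false calls do not carry over to the real calls. The last test cannot be run for Hamp and Tfr2. The F test is kept as planned and both are reported. Library numbers showed no pairing across ages: in no tissue and age did all 4 same-numbered libraries correlate above 0.1 with those of 6 months. That comparison is between ages and cannot show whether tissues of the same age came from the same mouse. In limma-voom the correlation within blocks of the same age and number, across tissues, was 0.0146. Whether such libraries share a mouse was not tested further.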

Additional observations from a re-analysis of the deposited data

Results flagged for a closer look

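In 19 of 292 groups of 4 libraries (6.51%), 1 library lay far from the other 3, where chance gives about 1 group in 20. Values are normalised reads. In aorta, Hamp at 6 months was 104 in 1 library (others 0 to 2.57), Trf at 6 months 9960 (3420 to 4250), Tfrc at 24 months 7340 (1560 to 2060), Fth1 at 30 months 28500 (30200 to 30400) and Ftl1 at 30 months 16000 (14800 to 14900). The 6-month values of Hamp and Trf came from the same library, replicate 3. In brain at 15 months, Fth1 was 30900 in 1 library (27300 to 27700) and Cp 410 (309 to 318). In heart at 24 months, Ftl1 was 2730 (4460 to 4600) and Cp 3210 (1720 to 1900), both in replicate 4.

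In kidney, Trf at 24 months was 1220 (661 to 718), Fth1 at 6 months 57900 (67700 to 69500) and Hfe at 30 months 406 (497 to 514). In liver, Slc11a2 at 15 months was 1340 (577 to 635) and Hfe at 30 months 761 (862 to 880). In lung, Trf at 24 months was 9960 (5510 to 5740), Slc40a1 at 24 months 698 (163 to 251), both in replicate 4, and Hfe at 6 months 864 (720 to 741). In skin, Trf at 30 months was 1250 (523 to 563) and Tfr2 at 6 months 52.1 (13.4 to 17.9).

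The change at 30 against 6 months differed between tissues by the F test in limma for Trf (adjusted p = 3.32e-11), Cp (6.68e-06), Hfe (0.00661), Slc11a2 (0.00822), Fth1 (0.0222) and Slc40a1 (0.0408), against 32.2% of all genes.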

How the results depend on the processing

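Of 14 calls at 30 months, 12 to 14 were shared by each of 12 other settings, whose counts were 12 to 18. With 1 library left out the counts were 13 to 16 at 30 months, 8 to 10 at 24 months and 0 to 3 at 15 months, and 5 to 7 for the difference between tissues, where only the libraries of 6 and 30 months were left out in turn. At 24 months 15 pairs were called by limma-voom with quality weights and 16 without the libraries that stand apart, against 9. At 15 months 4 were called by DESeq2, 6 by limma-voom with quality weights, 5 with the 2 ages compared alone and 3 without the libraries that stand apart, against 0. The difference between tissues passed for 3 members without those libraries, against 6. The cause was not tested. Shares over all genes under the settings of this section are not given here, so its counts cannot be set against such shares. With the replicate number as a block within each tissue, 13 pairs were called at 30 months, 8 at 24 and 0 at 15. With age and number together as a block across tissues, 6 members differed between tissues (limma-voom). These 6 held Tfr2 (adjusted p = 0.000453) and not Slc40a1 (0.0723). edgeR on recovered reads likewise passed Tfr2 (0.00036) and not Slc40a1 (0.0521). The replicate numbers showed no pairing across ages. None of the 23 calls of members at 24 and 30 months changed sign under any setting run, while 66 of the 196 changes not called at 15, 24 and 30 months did under at least 1. Depth limits Hamp outside liver and Tfr2 in heart, lung and muscle. Of 16 libraries per tissue, Hamp held no read in 14 of muscle, 7 of skin, 6 of kidney, 2 of aorta and 1 of brain. Every lung and heart library held Hamp reads, 9 to 96 in lung and 1 to 60 in heart. Tfr2 held no read in 9 libraries of heart, 9 of muscle and 3 of lung.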
